A study of Mus musculus with 2 samples.

Results

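The let-7 family of microRNAs (miRNAs) was followed through a pull-down of Stat3 mRNA from RAW264.7 cells, a mouse macrophage line. Its 9 assays, mmu-let-7a, mmu-let-7b, mmu-let-7c, mmu-let-7d, mmu-let-7e, mmu-let-7f, mmu-let-7g, mmu-let-7i and mmu-miR-98 (written without the mouse prefix from here on), were taken by name from the 376 miRNA assays of the authors' deposited table. The rule uses names only, but the family was picked for description with earlier results of these data known. The study asked which miRNAs come down with Stat3 mRNA, the message of a transcription factor that carries signals of IL-6, IL-10 and other cytokines to the nucleus. In both groups the cells were transfected with a probe, left for 24 hours, and the associated RNA was recovered on streptavidin beads. One group received a control probe and the other a probe for Stat3 mRNA, with 1 pull-down each. No other treatment or genotype is given for either group, and the labels give neither the probe sequences nor the targeted part of Stat3 mRNA. Real-time PCR with SYBR green then measured the miRNAs, on 1 plate of 384 wells per pull-down.

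Let-7 was among the first miRNAs found, as a regulator of developmental timing in worms, and in mammals its members rise as cells differentiate. A miRNA guides an Argonaute protein to mRNAs that pair with its seed, bases 2 to 8, and members that share a seed can therefore bind the same sites. The family is known for restraining growth-promoting genes such as Ras, Myc, Lin28 and Hmga2, and the mRNA of IL-6, a cytokine that macrophages make, is also a described target.

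The mature sequences are shown because all 9 members carry one seed and differ only outside it. They are given 5′ to 3′ from RefSeq (GRCm38.p6), which held all 9, with the seed in capitals.
let-7a: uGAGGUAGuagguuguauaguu
let-7b: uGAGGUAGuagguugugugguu
let-7c: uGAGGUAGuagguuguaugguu
let-7d: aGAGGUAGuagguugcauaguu
let-7e: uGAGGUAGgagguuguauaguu
let-7f: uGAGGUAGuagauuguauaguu
let-7g: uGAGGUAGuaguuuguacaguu
let-7i: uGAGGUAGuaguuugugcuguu
miR-98: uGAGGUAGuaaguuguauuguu

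Each sequence has 22 bases, and 14 of these positions are the same in all 9. With positions counted from the 5′ end and let-7a as the reference, let-7c differs by A19G alone, let-7e by U9G alone and let-7f by G12A alone. Let-7b carries A17G and A19G, let-7d U1A and U16C, let-7g G12U and U18C, and miR-98 G11A and A19U. Let-7i is the most distant from let-7a, with G12U, A17G, U18C and A19U. Among the 9 members, only let-7f has an A at position 12 and only let-7e a G at position 9. Let-7f and miR-98 hold the fewest G and C bases, 7 each, and let-7b holds the most, 10.

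The measurement is a threshold cycle (Ct), the PCR cycle at which the signal of a well crosses a fixed threshold. More template gives a lower Ct, by 1 cycle for each doubling at full efficiency. An assay was called measured below 35 cycles, the ceiling that the deposited ratios use. With the control probe 121 wells lay below 35 cycles and with the Stat3 probe 132, and 100 of the 376 miRNA assays (26.6%) were below it in both pull-downs. Ratios place the Stat3 probe over the control probe and keep the scale of the authors' deposited table, which adds 0.7 cycles to every difference in Ct. With 1 pull-down per probe no test between the probes exists. The only measured error comes from UniSp3, a constant calibrator template in 3 wells, whose Ct differed between the plates by 0.020, -0.76 and -1.91 cycles (SD 0.97, n = 3 wells). The last of these wells lies in an even row of the plate, while all 9 members lie in odd rows (A, C, E and further), and the 2 calibrator wells in odd rows had an SD of 0.55. The SD of 3 wells is meant below unless the odd rows are named. Both SDs are of the difference in Ct between the plates and do not measure the spread of wells within a plate. Within a plate, the UniSp3 wells read 21.18 to 21.76 cycles with the control probe and 21.48 to 23.67 with the Stat3 probe. The calibrator covers the PCR and the plate but not the pull-down. Of 6 miRNAs listed for macrophages and myeloid cells, 5 were measured in both pull-downs, among them miR-21, miR-142-3p and miR-223, while miR-142-5p was in neither. Of 17 assays for other cell types, 7 were below 35 cycles in neither pull-down, as were 237 of all 376 miRNA assays. These 7 included all those for the muscle miRNAs miR-1, miR-133a, miR-133b and miR-206. Another 5 of the 17 passed the limit with the control probe alone, against 14 of the 376. The other 5 passed it in both pull-downs, against 26.6% of all miRNA assays, at Ct values of 30.47 to 34.33 and 31.17 to 34.70. These last 5 were miR-9, miR-451, miR-126-3p and the mouse and rat assays of miR-200c. Their part in the ratios was not tested.

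All 9 members gave a Ct with both probes, and 8 of the 9 had the lower Ct with the Stat3 probe. Let-7b went from 28.93 cycles with the control probe to 26.81 with the Stat3 probe, the lowest Ct of any member in either pull-down. Let-7c went from 29.12 to 27.25 cycles and let-7g from 29.31 to 27.68. These 3 had the lowest Ct values of the family with the Stat3 probe, and neighbours among them differed by less than the calibrator SD in both pull-downs. The next member, let-7e, was 0.82 cycles above let-7g with the Stat3 probe, also less than that SD but more than the SD of the odd rows. Let-7e went from 30.88 to 28.50 cycles, let-7d from 30.90 to 28.88, and let-7a, the reference in the sequence comparison, from 31.90 to 30.06. Let-7i was at 32.65 and 32.48 cycles, a difference well inside the calibrator SD. Let-7f alone had the higher Ct with the Stat3 probe, 29.54 cycles against 28.79 with the control probe, the lowest of the family there. That rise of 0.75 cycles is less than the calibrator SD though more than that of the odd rows, and its direction was not kept relative to the calibrator, where the log2 ratio of let-7f was 0.13. miR-98, at 35.34 and 33.61 cycles, was the highest Ct in both pull-downs and passed the limit of 35 cycles only with the Stat3 probe.

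**Figure D1:**
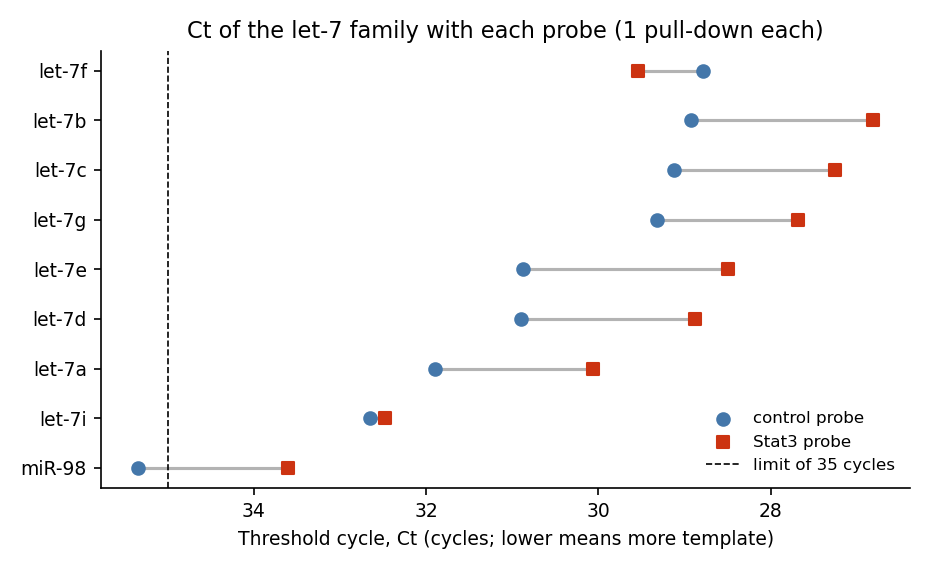
Ct in cycles on a reversed horizontal axis for the 9 members, with circles for the control probe and squares for the Stat3 probe (1 pull-down each) and a dashed line at the limit of 35 cycles. The square lies to the right of the circle, at a lower Ct, for 8 members, while for let-7f it lies to the left (28.79 and 29.54 cycles).

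The order of the members by Ct was the same in both pull-downs once let-7f was set aside. From the lowest Ct, it ran let-7b, let-7c, let-7g, let-7e, let-7d, let-7a, let-7i and miR-98. Let-7f stood first of the 9 with the control probe and sixth with the Stat3 probe. Among the 100 miRNA assays measured in both pull-downs, let-7f held rank 14 by Ct with the control probe and rank 40 with the Stat3 probe, while let-7b held ranks 15 and 13. With the control probe, gaps between neighbours above the calibrator SD lay between let-7g and let-7e (1.57 cycles), let-7d and let-7a (1.002) and let-7i and miR-98 (2.69). With the Stat3 probe they lay between let-7a and let-7i (2.42 cycles) and let-7i and miR-98 (1.13). All other neighbours in the order were closer than the calibrator SD. For these gaps within a plate the SD, taken between plates, is only a yardstick and not their error. Against the SD of the odd rows, 1 more gap with the control probe (let-7a to let-7i, 0.75) and 2 more with the Stat3 probe (let-7g to let-7e, 0.82, and let-7d to let-7f, 0.66) were larger. Since assays can differ in efficiency, this is an order of Ct and not of abundance.

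On the deposited scale, 6 of the 8 members measured in both pull-downs had close ratios. They were let-7e at 8.46-fold, let-7b at 7.03-fold, let-7d at 6.59-fold, let-7c at 5.95-fold, let-7a at 5.80-fold and let-7g at 5.03-fold. In log2 units they spanned 2.33 to 3.08, a width of 0.75. That width is smaller than the calibrator SD but larger than the SD of the odd rows, 0.55. Neighbours among them lay at most 0.27 apart, which is below both SDs, so neighbours cannot be ordered. Let-7i followed at 1.83-fold and let-7f at 0.964-fold, and no member was at least 2-fold lower, against 2% of the 100 miRNA assays measured in both pull-downs. miR-98, with the control probe set to 35 cycles, was at least 4.27-fold higher, and its raw control Ct of 35.34 gave 5.41-fold. The ratios are those of the authors' deposited table, by which the wells were found, and let-7e is listed there at 8.455 and let-7f at 0.964.

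The count of 6 of 8 members (75%) at least 2-fold higher stood beside 73% of all 100 miRNA assays measured in both pull-downs, and the share of the family was thus near the background. At a limit of 4-fold the same 6 members passed, against 53% of all assays. The family median log2 ratio was 2.55, a 5.87-fold ratio, and that of all 100 assays was 2.08. The sign of the family median depended on the scale. Relative to the mean of the reference miRNAs miR-423-3p, miR-16, miR-191 and miR-103 the median was -0.017, and without miR-423-3p it was 1.002. Of these references, miR-423-3p had a ratio of 49.5-fold, and only miR-16 lies in the odd plate rows that hold the family. More miRNA on each captured mRNA and more captured material in all cannot be told apart in these values. Control assays that are not miRNAs went in different directions on the deposited scale. RNU5G (0.472) and RNU1A1 (0.699) were lower with the Stat3 probe, while U6 was higher (4.33). The UniSp6 spike-in, in the well assumed for it, was nearly level (1.002). All of these wells lie in even plate rows. Their bearing on the amount of captured material was not tested.

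The ratios of all miRNA assays were not level between the odd rows, which hold the family, and the even rows. The 66 other miRNA assays of the odd rows had a median of 4.73-fold, with quartiles of 2.40-fold and 7.39-fold, while the median over the 26 assays of the even rows was 1.80-fold. In the odd rows 82.4% of assays, members included, passed the 2-fold limit and 60.8% the 4-fold limit. Against the median of the other assays in those rows, the family median was higher by 0.31 in log2 units, less than the calibrator SD. Of the 8 members measured in both pull-downs, 5 lay within the quartiles of those rows. Let-7e lay above the upper quartile, and let-7i and let-7f lay below the lower one. The SD of log2 ratios was 1.10 over the 8 members and 1.503 over the 66 other assays.

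**Figure D2:**
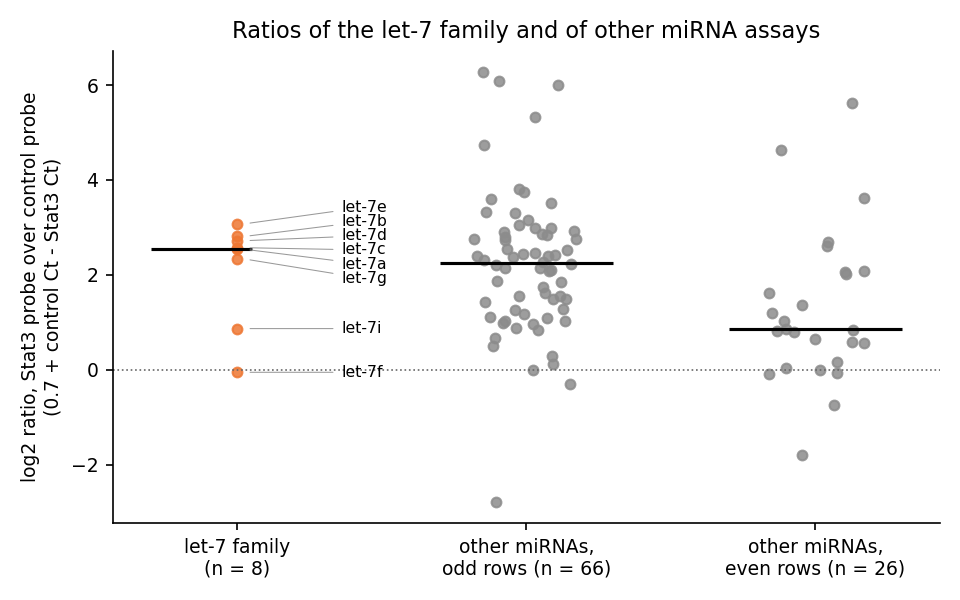
Log2 ratio of Stat3 probe over control probe on the deposited scale for the 8 family members and for the 92 other miRNA assays measured in both pull-downs, split by odd and even plate rows, with each point an assay and each bar a median. Of the family, 6 members sit between 2.33 and 3.08 near the median of the other assays in the odd rows, with let-7i and let-7f below. Scaled to the 4 reference miRNAs the family median moves from 2.55 to -0.017, and without miR-423-3p among them to 1.002.

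Let-7f stood apart from the 6 members with close ratios. It lay 0.92 in log2 units below let-7i, less than the calibrator SD but more than that of the odd rows. Its log2 ratio of -0.053 lay 2.38 below that of let-7g, the lowest of the close 6, a distance above the 1.93 cycles that separated the calibrator wells at their widest. Against the median of the other assays in the odd rows its log2 ratio was lower, at -2.29, and only 2 of those 66 assays had a lower ratio. The 66 leave out odd-row assays below 35 cycles with the control probe alone. Of these, miR-187 (at most 0.790-fold), miR-490-3p (0.755), miR-219-5p (0.544) and miR-124 (0.344) were also lower than let-7f. The others had bounds above the ratio of let-7f. The other 11 measured assays of its own plate row, G, had a median of 7.22-fold, so its low ratio was not shared by that row. Without the offset of 0.7 cycles its ratio was 0.593. No instrument warning was attached to its well in either pull-down.

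Let-7i had the second lowest ratio of the family, 1.83-fold, or 1.12-fold without the offset. Its well, in row A, was the only one on either plate marked with the warnings HNS and HRN, and it was so marked on both plates. The other 5 measured assays in row A had a median of 2.04-fold, close to let-7i, although let-7c in the well beside it was at 5.95-fold. In log2 units let-7i lay 1.46 below let-7g, more than the calibrator SD but within the calibrator range, and 0.92 above let-7f, less than the calibrator SD but more than that of the odd rows. The calibrator range rests on the well in an even row. The 2 wells in odd rows, at 0.020 and -0.76 cycles, lay closer together than 1.46. Left out, let-7i changed the family median log2 ratio from 2.55 to 2.57.

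Sequence similarity and similarity in ratio were set side by side over the 28 pairs of members measured in both pull-downs. Of the 4 pairs that differ by 1 base, let-7a and let-7c differed by 0.036 in log2 ratio, let-7b and let-7c by 0.24, and let-7a and let-7e by 0.54, all below the calibrator SD. The fourth pair, let-7a and let-7f, which differ by G12A, was 2.59 apart, or 6.02-fold. Let-7g and let-7i, which share a U at position 12, differ by A17G and A19U and were 1.46 apart. In the 15 pairs without let-7f and let-7i the difference was at most 0.75, although these pairs differ by up to 4 bases. Let-7f and let-7i were set aside for their low ratios, so this limit is the width of the close 6 given above. Let-7f lay between 2.38 and 3.13 from each of the other members except let-7i. Pairs with 1 differing base had a median difference of 0.39, with 2 bases 0.98, with 3 bases 0.55 and with 4 bases 0.70. The single pairs with 5 bases (let-7e and let-7i) and 6 bases (let-7d and let-7i) were 2.21 and 1.85 apart, and both include let-7i. The medians thus did not increase at each added base, although both single pairs lay above the medians of the closer ones. These pairs share members and are not independent. How far each assay detects the neighbouring members was not tested.

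**Figure D3:**
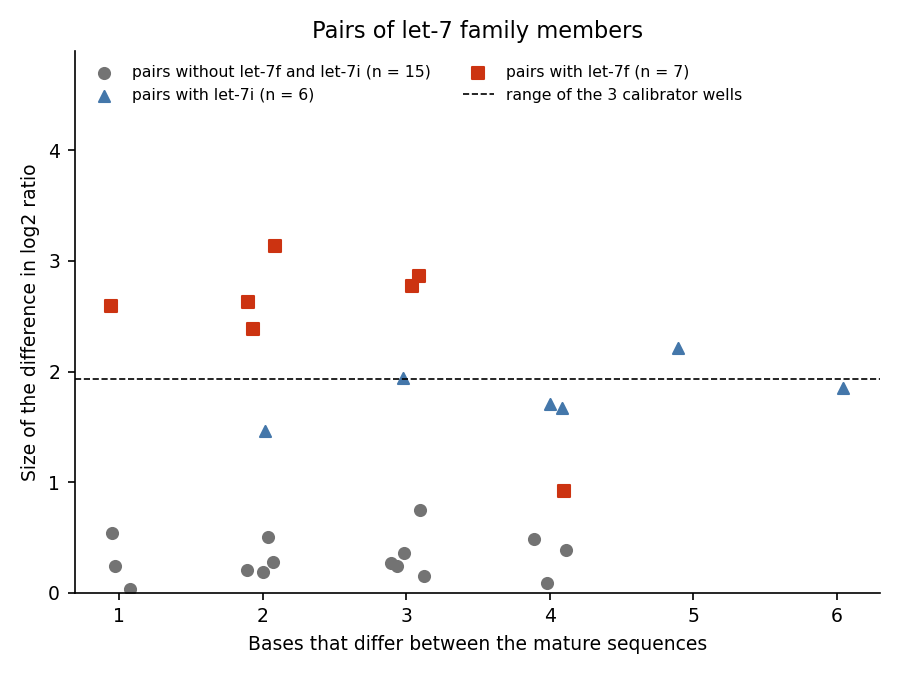
Size of the difference in log2 ratio (vertical axis) against the number of differing bases (horizontal axis, points spread sideways for visibility) for the 28 pairs of members measured in both pull-downs, with squares for pairs that include let-7f, triangles for those that include let-7i and a dashed line at the calibrator range of 1.93 cycles. The 15 pairs without either stay at or below 0.75, and the let-7f pairs lie between 2.38 and 3.13 apart from the one with let-7i at 0.92.

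Let-7a had a higher Ct than let-7c, let-7e and let-7f, its 1-base neighbours, in both pull-downs. Let-7c was 2.78 cycles below let-7a with the control probe and 2.81 cycles below it with the Stat3 probe, which left their ratios 0.036 apart. Let-7f was 3.11 cycles below let-7a with the control probe but only 0.52 cycles below it with the Stat3 probe. With the control probe let-7f lay with let-7b, let-7c and let-7g, and with the Stat3 probe between let-7d and let-7a.

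Several members are made from shared primary transcripts, and the ratios were arranged by gene cluster, with positions from RefSeq (GRCm38.p6). Distances between genes were counted between the spans of all their mature arms, so they can be shorter than those between the printed positions. On chromosome 13 the genes of let-7a-1 (mature sequence at chr13:48538239-48538260, minus strand), let-7f-1 (chr13:48537889-48537910) and let-7d (chr13:48536078-48536099) lie on one strand. Their mature forms had ratios of 5.80-fold, 0.964-fold and 6.59-fold, so let-7f was the one low ratio of the 3. Let-7f is also encoded on chromosome X, at chrX:151912353-151912374 (plus strand), 806 bases from miR-98 (chrX:151913229-151913250) and within the span of the protein-coding gene Huwe1, and miR-98 was at least 4.27-fold higher. Mature let-7f from the 2 genes is identical and was read by 1 assay. Let-7c-2 (chr15:85706616-85706637, plus strand) and let-7b (chr15:85707325-85707346) lie 640 bases apart within the long noncoding RNA gene Lncppara, and let-7c and let-7b had ratios of 5.95-fold and 7.03-fold. Let-7g lies within the span of Wdr82 (chr9:106178846-106178867, plus strand). The gene of miR-135a-1 is 24646 bases from it on the same strand, and the miR-135a assay, looked up after its place was seen, was below 35 cycles in neither pull-down. Let-7i (chr10:122985698-122985719, minus strand) lay within the span of no other RefSeq gene searched. Genes with symbols that begin with Mir, miRNA host genes so named included, were left out of that search.

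Let-7e (chr17:17830366-17830387, plus strand) lies within the span of Spaca6, beside miR-99b and miR-125a, which have other seeds. Let-7e was at 8.46-fold, while miR-99b was at 40.1-fold and miR-125a-5p at 26.6-fold, from 31.10 to 26.48 cycles and from 29.64 to 25.60 cycles. In log2 units miR-99b lay 2.24 above let-7e and miR-125a-5p 1.65 above it, the former above the calibrator range and the latter within it. Both gaps were wider than that between the 2 calibrator wells in odd rows. In the paralogous cluster of let-7c-1 (chr16:77599672-77599693, plus strand) the ratios were 4.79-fold for miR-99a, 5.95-fold for let-7c and 6.74-fold for miR-125b-5p. miR-125b-5p is also made beside let-7a-2 and miR-100 on chromosome 9, and miR-100 was below 35 cycles in neither pull-down. Of the 6 assays for miRNAs of these clusters, 4 were measured in both pull-downs and all 4 passed the 2-fold limit, as did 82.4% of all assays in the odd rows. miR-125a-3p, the other arm of miR-125a, was below 35 cycles in neither. The 4 reference miRNAs had a mean log2 ratio of 2.57, and scaled to them miR-99a had a log2 ratio of -0.31.

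**Figure D4:**
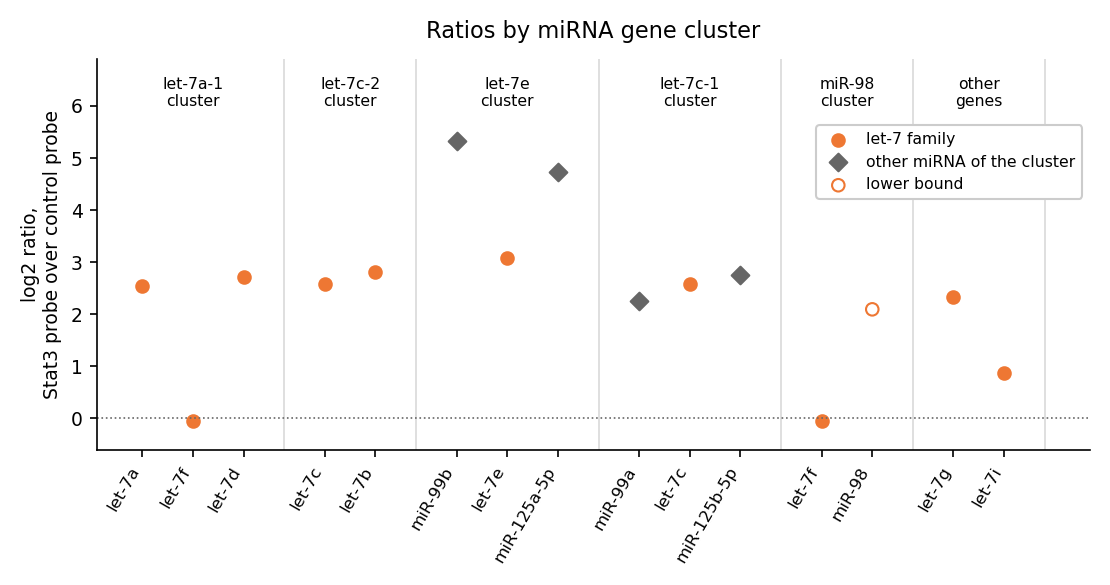
Log2 ratio of Stat3 probe over control probe on the deposited scale for let-7 family members (circles; open for the lower bound of miR-98) and for the miRNAs encoded beside them (diamonds), by gene cluster, with let-7c and let-7f drawn in both clusters that encode them and the cluster of let-7a-2 and miR-100 left out. miR-99b and miR-125a-5p lie above let-7e, and let-7f lies below let-7a and let-7d. Scaled to the 4 reference miRNAs, every point moves down by 2.57, which turns the sign for let-7a, let-7g, let-7i, the bound of miR-98 and miR-99a. Without miR-423-3p among the references, every point moves down by 1.55.

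The 3 assays with related seeds gave almost no signal. Most miRNA assays were alike in this, with 237 of 376 below 35 cycles in neither pull-down. RefSeq held 11 mature names with the let-7 seed, the 9 members and let-7k and miR-1961, and the last 2 were not analysed here. miR-202-3p differs from that seed by 1 base, and the seed of miR-196a and miR-196b equals bases 3 to 9 of let-7a. Their sequences are shown, with bases 2 to 8 in capitals, to mark how far their pairing overlaps with that of let-7.
miR-202-3p: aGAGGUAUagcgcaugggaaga
miR-196a: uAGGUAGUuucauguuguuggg
miR-196b: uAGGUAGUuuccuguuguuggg
Of these 3, miR-202-3p and miR-196a were below 35 cycles in neither pull-down. With the control probe miR-196b gave 34.79 cycles, and it was undetermined with the Stat3 probe, a ratio of at most 1.41-fold. The passenger strand of a let-7 hairpin that was on the plate, let-7a-1*, was likewise below 35 cycles in neither.

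The assays most like the family were taken as the 5 non-members nearest to its median point (Ct 30.10 for the control probe, 28.69 for the Stat3 probe), by distance in cycles over the 2 pull-downs. They were miR-182 at 0.090 cycles, miR-210, a hypoxia-induced miRNA, at 0.22, miR-378 at 0.26, miR-19b at 0.40 and miR-27a at 0.47. In the same order they had 4.16-fold, 5.27-fold, 5.44-fold, 3.07-fold and 6.63-fold ratios. The ratio is computed from the same 2 Ct values, so assays chosen by them have ratios near that of the median point by construction. With only 2 pull-downs this likeness rests on 2 values per assay.

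**Figure D5:**
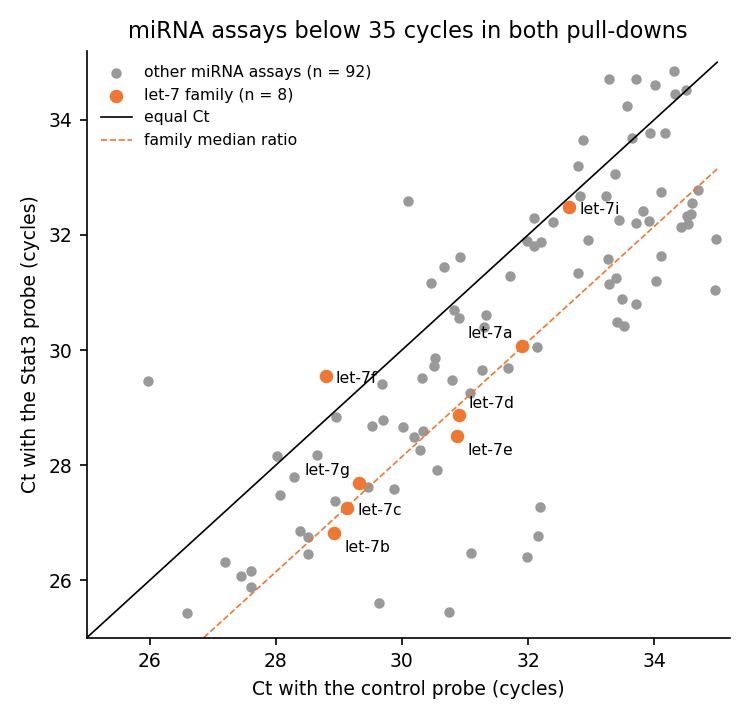
Ct with the Stat3 probe against Ct with the control probe, both in cycles, for the 100 miRNA assays measured in both pull-downs, with the family in orange, a solid line at equal Ct and a dashed line at the family median ratio of 5.87-fold. Let-7b, let-7c, let-7g, let-7d, let-7e and let-7a follow the dashed line, let-7i lies next to the line of equal Ct and let-7f above it. Scaled to the 4 reference miRNAs the family median ratio becomes -0.017 in log2 units, and without miR-423-3p among them 1.002.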

How the data were processed

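Each plate file is an SDS 2.3 export, per the file headers, with a raw Ct for each of 384 wells at a manual threshold of 0.15. It carries no normalization and no assay names. The authors' deposited table gives a ratio for each of 384 named assays; its header calls it a log fold change, but the values are linear ratios. With undetermined wells and any Ct above 35 set to 35, raising 2 to (control Ct − Stat3 Ct + 0.7) gave all 384 sorted values back to within 0.0005. No header or label states this offset or ceiling. This identity tied names to wells: 142 of 146 informative rows, all 9 let-7 assays included, matched 1 well. The 238 rows at 1.625 were at the ceiling in both pull-downs. miR-451 and the UniSp6 spike-in matched the same pair of wells, and UniSp6 was assumed to be the one of lowest Ct. miR-326 and miR-294 were left unassigned.

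The planned unit was a relative level; the plates hold Ct, from which log2 ratios were computed instead. The matching was run on simulated plates whose ratios were made with the same formula, offset and ceiling. That run checks the search for wells and cannot test the formula itself. Members, lists and the split by odd and even plate rows were chosen with earlier results of these data known. The text names the 9 members, miRNAs encoded beside them, passenger arms, close seeds, the 5 assays nearest in Ct, control wells, reference miRNAs and cell type markers. Alternatives changed the offset, scale, factor per cycle, fold limit, ceiling and background. The listed cluster partners were fixed by name, and neighbours within 60 kb on one strand were then looked up (RefSeq, GRCm38.p6). Python 3.11.15, pandas 2.3.3 and numpy 2.4.6 were used. With 1 pull-down per probe, no p-value or error between samples was computed.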

Additional observations from a re-analysis of the deposited data

How the results depend on the processing

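The family median log2 ratio of 2.55 was 0.48 centred on all miRNA assays, 0.31 centred on the other assays of the odd plate rows, and 1.002 scaled to miR-103, miR-191 and miR-16, an alternative added after the data were seen; it turned to -0.017 scaled to those 3 and miR-423-3p. The number of members at least 2-fold higher was 1, 0, 4 and 0 on these scales in place of 6. On the scale of the 4 references let-7a (-0.035), let-7g (-0.24), let-7i (-1.70) and the bound of miR-98 (-0.48) also changed sign. Let-7i was negative as well when centred on all assays (-1.21), centred on the odd rows (-1.37) or scaled to the 3 references (-0.68). The bound of miR-98 was -0.15 when centred on the odd rows. These scales subtract one value from every assay, so the difference of -2.59 between let-7f and let-7a is the same on each. With no offset, the UniSp3 scale, a factor of 1.9 per cycle, the mean of the members, miR-98 included or wells with a warning left out, the median lay between 1.85 and 2.74. With no offset and the factor of 1.9, 6 members were at least 2-fold higher, and 7 on the UniSp3 scale. The distance of the family from the background medians stayed between 0.31 and 0.52 over the backgrounds tried. With a limit of 1.5-fold or 4-fold, or miR-98 counted, 6 or 7 members passed. With the SD of the 2 calibrator wells in odd rows, chosen after the data were seen, neighbours farther apart than the SD went from 1 to 2 by ratio, from 3 to 4 by Ct with the control probe and from 2 to 4 with the Stat3 probe. Neither SD measures the spread of Ct within a plate. All 9 members kept 1 well at a tolerance of 0.005. At a limit of 33 cycles 8 members were measured with each probe. No paired analysis was possible because each probe has 1 pull-down. Precision is limited by the 1 plate per probe.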
